A study of Mus musculus with 2 samples.

Results

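Rgs5, Kcnj8, Abcc9, Cox4i2, Higd1b, Notch3 and Pdgfrb are genes by which pericytes are recognised, and their transcripts were counted in single mouse lung cells as UMIs (unique molecular identifiers, tags that count each captured transcript 1 time). The 7 genes were chosen by name, from 31053 features in the files, and all 7 were found. According to the labels the cells came from NG2tdT mice, in which a tamoxifen-inducible Cre driven by NG2 (gene Cspg4) switches on the red fluorescent protein tdTomato from the Ai14 allele, in NG2 cells and their descendants. The design text of the series gives 2 mg of tamoxifen per 30 g of body weight and 7 days of rest, and the study's methods put its mice at 2 to 4 months of age. The Normoxia library came from mice labelled as not treated, and the Hypoxia library from mice kept at an inspired oxygen fraction (FiO2) of 10% for 21 days. The labels also state that tdTomato cells had been sorted, whereas the study describes single-cell libraries of whole lung from wild-type mice, depleted of CD45 and CD326 cells, so its account may be of other libraries than these. NG2 also marks some smooth muscle cells and glial cells, so the line is not restricted to pericytes.

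Pericytes sit on capillaries inside the basement membrane and touch the endothelium. Their ATP-sensitive potassium channel is built from the pore Kir6.1 (Kcnj8) and the sulfonylurea receptor SUR2 (Abcc9), and its opening hyperpolarises the cell and relaxes small vessels. PDGF-B from endothelial cells holds pericytes on the vessel through the receptor PDGFRβ (Pdgfrb), and Notch3, a receptor for Jagged ligands, maintains mural cells. Rgs5 shortens signals from G protein-coupled receptors, Cox4i2 encodes an oxygen-regulated subunit of cytochrome c oxidase, and Higd1b belongs to a family of mitochondrial proteins tied to hypoxia.

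There was 1 library per group, so no spread between replicates could be measured and no test was made. Every difference below is between these 2 libraries, and the 95% intervals cover counting error only. After filtering on detected genes and mitochondrial UMIs, 293 of 373 Normoxia barcodes and 453 of 613 Hypoxia barcodes passed, and the median cell had 3135 and 2818 UMIs. The libraries shared 2 barcode sequences, none of them with a UMI of the 7 genes. Cspg4, the gene behind the label, had 1 UMI in the retained Normoxia cells and 2 in the retained Hypoxia cells. Joint clustering without the 7 genes, Hhip and the gene lists gave 16 clusters, and none was named pericyte-like or smooth muscle-like. The withheld lists included pericyte and smooth muscle genes, and the pericyte markers used for naming lacked the 7 genes. The absence of these names therefore does not show that such cells were absent. Cluster 5 stayed unnamed because several classes competed. Beside fibroblast markers it had the smooth muscle markers Acta2, Tagln, Des, Mylk and Myl9 and the myofibroblast markers Aspn, Mustn1, Fgf18 and Wnt5a. Endothelial cell-like cells (109 in Normoxia, 214 in Hypoxia) and T, NK or B cell-like cells (44 and 130) made up much of both libraries. Clusters 4 and 5 matched more markers of the fibroblast list than of any other list, by number and not by share of the list. They are called mesenchymal here and held 93 Normoxia cells and 31 Hypoxia cells.

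The promoters of Rgs5, Kcnj8 and Abcc9 are shown first, because UMIs of these 3 genes met in the same cells and the motif search gave a different outcome for each. Kcnj8 (chromosome 6, 142564837 to 142571614, GRCm38, minus strand) and Abcc9 (chromosome 6, 142587862 to 142702315, minus strand) lie next to each other with 16247 bases between them, while Rgs5 lies on chromosome 1 (169655501 to 169695813, plus strand). RefSeq promoters (GRCm38.p6) are reported for 4 of the 7 genes, Rgs5, Kcnj8, Abcc9 and Notch3, from 250 bases before to 50 bases after each start. Each sequence below runs 5′ to 3′ on the gene's own strand, and capitals mark every match to the motifs searched on both strands.
Rgs5 (chr1:169655251-169655550, plus strand): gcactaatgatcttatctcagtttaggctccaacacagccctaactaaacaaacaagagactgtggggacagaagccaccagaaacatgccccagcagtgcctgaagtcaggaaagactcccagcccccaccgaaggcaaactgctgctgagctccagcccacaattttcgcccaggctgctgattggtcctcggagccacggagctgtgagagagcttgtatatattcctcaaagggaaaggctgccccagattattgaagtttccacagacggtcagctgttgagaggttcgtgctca
Kcnj8 (chr6:142571565-142571864, minus strand): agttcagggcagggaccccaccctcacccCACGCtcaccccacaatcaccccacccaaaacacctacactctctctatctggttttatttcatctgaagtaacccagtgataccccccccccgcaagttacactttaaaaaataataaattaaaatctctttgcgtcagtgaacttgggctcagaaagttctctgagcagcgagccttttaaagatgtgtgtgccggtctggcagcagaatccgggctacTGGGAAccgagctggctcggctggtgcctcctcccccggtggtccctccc
Abcc9 (chr6:142702225-142702524, minus strand): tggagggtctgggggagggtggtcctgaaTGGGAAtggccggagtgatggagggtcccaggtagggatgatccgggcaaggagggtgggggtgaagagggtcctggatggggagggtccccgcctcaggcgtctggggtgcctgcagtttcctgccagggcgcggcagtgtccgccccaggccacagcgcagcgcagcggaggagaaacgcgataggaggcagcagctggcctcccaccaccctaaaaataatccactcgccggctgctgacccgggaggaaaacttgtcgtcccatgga

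The motifs were the core of the hypoxia response element (ACGTG or GCGTG), the core of RBPJ (TGGGAA), the DNA-binding partner of activated Notch receptors, the CArG box of smooth muscle genes, and TATAAA. They do not overlap in the 3 sequences. Kcnj8 held 1 hypoxia response element core, read on the opposite strand, at −221 to −217 from the start, and 1 RBPJ core at 1 to 6. Abcc9 held 1 RBPJ core at −221 to −216, and Rgs5 held none of the 4 motifs. Notch3 held 3 hypoxia response element cores. Among 32851 promoters of the same length, 43.8% held a hypoxia response element core, 25.6% an RBPJ core, 1.63% a CArG box and 13.6% TATAAA, so the matches are common ones and no more than a description.

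Of the genes of the ATP-sensitive potassium channel, Kcnj8 was detected in the largest number of cells among the 7 genes in both libraries. It had 98 UMIs in 35 Normoxia cells and 20 UMIs in 11 Hypoxia cells, or 88.1 CPM (UMIs of the gene per 1000000 UMIs of the library, 95% Poisson interval 71.5 to 107) against 12.6 CPM (7.67 to 19.4). The log2 ratio of Hypoxia to Normoxia was −2.81 (−3.58 to −2.11), and the intervals of the levels did not overlap. Abcc9 had 49 UMIs in 30 Normoxia cells and 10 UMIs in 3 Hypoxia cells, of which 7 were in a single cell. Its log2 ratio was also −2.81 (−3.96 to −1.81). In these sums a smaller number of cells of a type cannot be told apart from less RNA per cell, and the share of mesenchymal cells also differed between the libraries.

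The paralogous channel subunits were not seen. Kcnj11 (Kir6.2) and Abcc8 (SUR1), which form the channel of pancreatic beta cells, had 0 UMIs in both libraries, which allows up to 2.70 CPM in Normoxia and 1.88 CPM in Hypoxia. Of the 9 potassium and cation channel genes on the list that includes them, none reached 20 UMIs over both libraries. Kcnk3, a background channel of pulmonary artery smooth muscle, came closest with 12 and 5 UMIs, and 9 of its 12 Normoxia UMIs were in cells with 2 or more of the 7 genes.

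Rgs5 showed the lowest log2 ratio of the 7. It had 109 UMIs in 16 Normoxia cells and 2 UMIs in 2 Hypoxia cells, 98.0 CPM (80.5 to 118) against 1.26 CPM (0.152 to 4.54), a log2 ratio of −6.29 (−9.35 to −4.40). The Normoxia UMIs were very unevenly spread. The 3 highest cells held 32, 30 and 22 UMIs, 77.1% of the total, the next 4 held 5, 4, 3 and 3, and the other 9 held 1 or 2. Most of the Rgs5 in the Normoxia library thus came from 3 cells. Its paralogue Rgs4 had 16 UMIs in 7 Normoxia cells and 1 UMI in Hypoxia.

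The genes of mitochondrial proteins were rarer. Cox4i2 (chromosome 2, 152754173 to 152765037) had 34 UMIs in 12 Normoxia cells, 13 of them in 1 cell, and 5 UMIs in 4 Hypoxia cells (log2 ratio −3.28, −4.99 to −1.92). Higd1b (chromosome 11, 102835849 to 102838040) had 14 UMIs in 4 Normoxia cells and 4 UMIs in 4 Hypoxia cells (log2 ratio −2.32, −4.39 to −0.65). Their paralogues did not share this pattern. Cox4i1, the ubiquitous form of the same subunit, had 969 UMIs over 87.7% of the Normoxia cells and 1492 UMIs over 85.7% of the Hypoxia cells (log2 ratio 0.11, −0.01 to 0.22). Higd1a had 130 and 229 UMIs and a log2 ratio of 0.30 (−0.02 to 0.62).

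The receptor genes differed from each other in how many cells held them. Pdgfrb (chromosome 18, 61045150 to 61085061) had 37 UMIs in 27 Normoxia cells and 14 UMIs in 10 Hypoxia cells, mostly 1 UMI per cell (log2 ratio −1.92, −2.92 to −0.998). Notch3 (chromosome 17, 32120820 to 32166852) had 8 UMIs in 4 Normoxia cells and 5 UMIs in 2 Hypoxia cells. Its log2 ratio of −1.20 had an interval from −3.15 to 0.60 that included no difference. Of their paralogues, Notch1, the endothelial receptor, had 36 and 92 UMIs, of which 29 and 72 were in endothelial cell-like cells. Pdgfra, a fibroblast receptor, had 60 and 55 UMIs, of which 59 and 54 were in the same mesenchymal clusters as Pdgfrb, and 16 and 23 in cells with 2 or more of the 7 genes.

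With a minimum of 20 UMIs over both libraries, 5 of the 7 genes could be counted against a 2-fold difference, Higd1b (18 UMIs) and Notch3 (13) falling below it. All 5 were lower in Hypoxia by more than 2-fold, while 8.13% of 9813 genes were. The median log2 ratio of the 5 was −2.81 and that of all genes counted was 0.04. This minimum admits genes that are abundant in a single library, so the count is a description of these libraries.

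**Figure D1:**
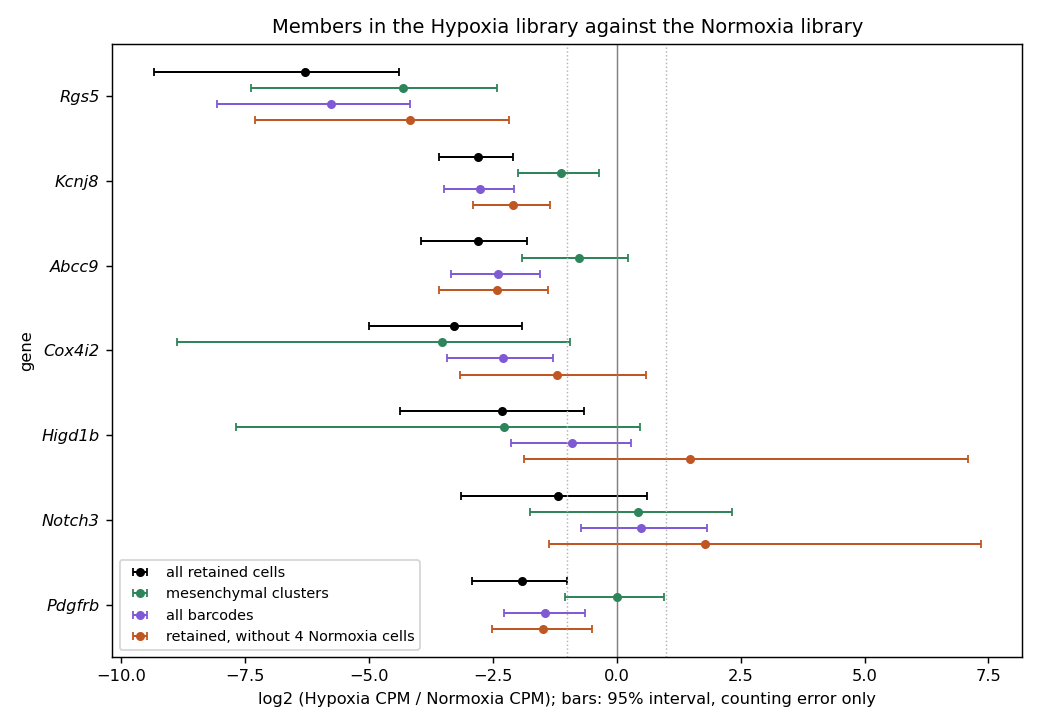
Log2 ratio of Hypoxia CPM to Normoxia CPM (x axis) for the 7 genes (y axis) in all retained cells, in mesenchymal clusters, in all barcodes and without 4 Normoxia cells; points are ratios, bars 95% counting intervals and dotted lines a 2-fold difference. Rgs5 and Kcnj8 lie left of 0 with their intervals in all 4 sets, whereas Pdgfrb lies at 0.00 in mesenchymal clusters, Higd1b right of 0 without the 4 cells, and Notch3 right of 0 in the other 3 sets than all retained cells.

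The UMIs of the 7 genes sat almost entirely in the mesenchymal clusters, although none of these genes had been used to make them. Clusters 4 and 5 held 381 of 409 UMIs (93.2%), from 98.2% of Rgs5 to 77.8% of Higd1b. Within these clusters 60 of 93 Normoxia cells (64.5%, Clopper-Pearson interval 53.9 to 74.2%) and 13 of 31 Hypoxia cells (41.9%, 24.5 to 60.9%) had a UMI of at least 1 of them. Outside, 21 of 622 cells did (3.38%, 2.10 to 5.11%). T, NK or B cell-like cells were taken as a background. Among them 1 of 44 Normoxia and 2 of 130 Hypoxia cells held a UMI. The median depth of these cell types was 3889 and 2475 UMIs, against 3834 and 3806 in the mesenchymal cells. The Normoxia cell, with Abcc9, had 17959 UMIs, 10 of them of Pecam1 and 9 of Cdh5, both endothelial genes. Both Hypoxia cells held Kcnj8. The intervals of the mesenchymal shares lay above the background shares, and whether free RNA or doublets gave the latter was not tested.

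**Figure D2:**
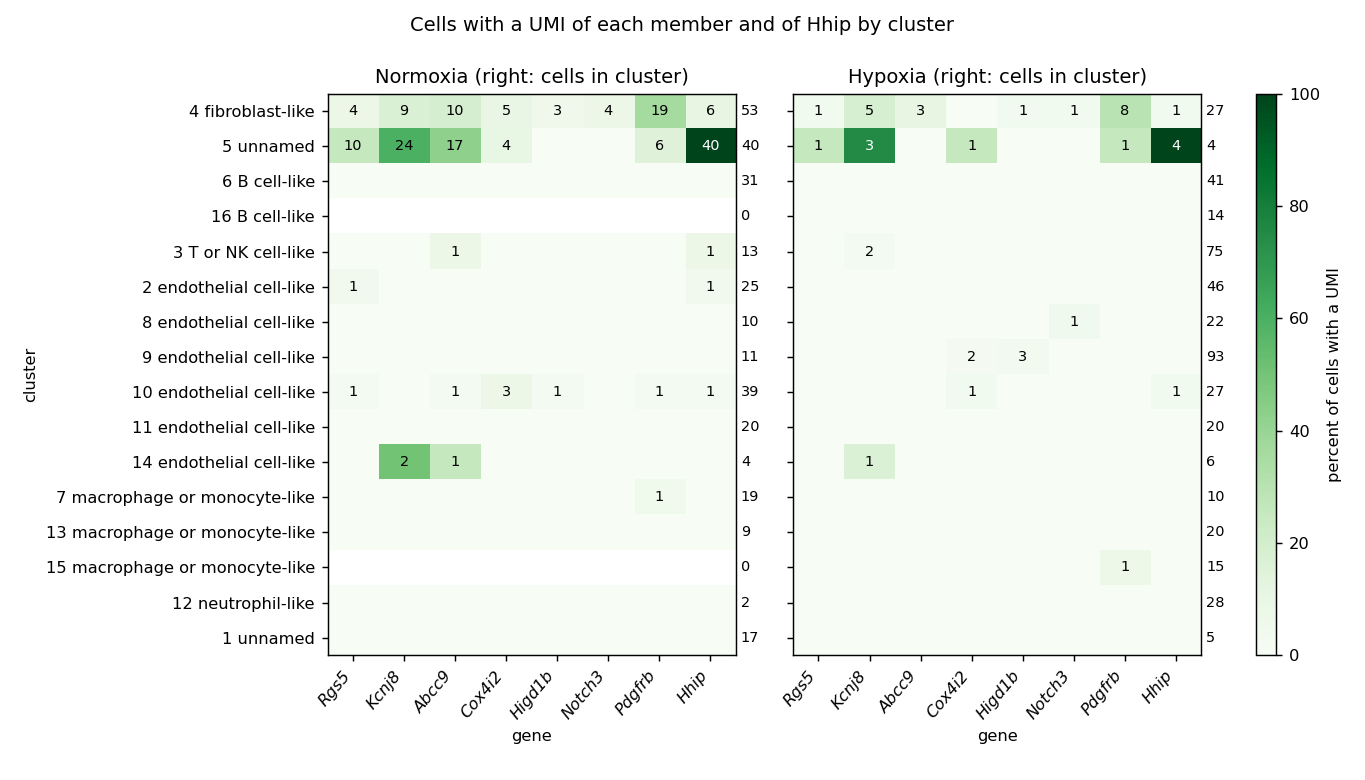
Percent of cells with a UMI (colour) of each gene (x axis) by cluster (y axis) in the Normoxia and Hypoxia libraries; numbers in the fields are cells, and those at the right edge are all cells of the cluster. Of the 94 cells with a UMI of any of the 7 genes, 73 lie in clusters 4 and 5, and cluster 5, made without Hhip, had Hhip in all 40 Normoxia and all 4 Hypoxia cells.

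Clusters 4 and 5 carried different sets of these genes. Cluster 4 was fibroblast-like (53 Normoxia and 27 Hypoxia cells, led by the club cell gene Scgb1a1, then Clec3b and Inmt). Cluster 5 had no name (40 and 4 cells, with Igfbp3, Cyp2e1 and the myofibroblast genes Mustn1 and Aspn among its leading genes). In Normoxia, Kcnj8 was detected in 24 of 40 cells of cluster 5 and in 9 of 53 cells of cluster 4, and Abcc9 in 17 and 10. Pdgfrb went the other way, with 6 cells in cluster 5 and 19 in cluster 4. Higd1b (3 Normoxia cells) and Notch3 (4 Normoxia cells) were found in cluster 4 and in 0 cells of cluster 5. Rgs5 was detected in 10 cells of cluster 5, with at most 5 UMIs, and in 4 cells of cluster 4, with up to 32.

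Since mesenchymal cells were fewer in the Hypoxia library, the genes were also compared within them. Rgs5 stood at 256 CPM in the Normoxia and 12.9 CPM in the Hypoxia cells (log2 ratio −4.31, −7.38 to −2.42). Kcnj8 had 225 and 103 CPM, a log2 ratio of −1.13 (−1.99 to −0.35), and Cox4i2 had 74.3 and 6.45 CPM, −3.53 (−8.87 to −0.94), from 31 UMIs against 1. For the other 4 genes the interval included no difference. Abcc9 had a log2 ratio of −0.77 (−1.92 to 0.23), Higd1b of −2.27 (−7.68 to 0.46) and Notch3 of 0.43 (−1.75 to 2.33). Pdgfrb had 83.8 CPM in each library and a log2 ratio of 0.00 (−1.04 to 0.95). Of the 5 genes with at least 20 UMIs there, 3 were lower by more than 2-fold, beside 14.6% of 4091 genes; the median log2 ratios were −1.13 and −0.19. These differences rested in large part on 4 Normoxia cells of cluster 4 that held 4 or more of the 7 genes. Without them, a step chosen after they had been seen, Kcnj8 had 136 and 103 CPM, a log2 ratio of −0.40 (−1.30 to 0.43), and Cox4i2 had 5 UMIs against 1 (−0.94, −6.50 to 2.22), so that both intervals included no difference. Rgs5 had 23 UMIs against 2 and stayed lower in the sum of both clusters (−2.14, −5.27 to −0.12). Of these, 22 Normoxia UMIs and 1 Hypoxia UMI lay in cluster 5, where the log2 ratio was −1.01 (−6.38 to 1.62). Notch3 had 1 UMI against 4 (3.38, 0.05 to 9.01), and all 4 were in a single Hypoxia cell, which the counting interval ignores. The 2 clusters were mixed in unlike proportions in the 2 libraries, 53 to 40 cells in Normoxia and 27 to 4 in Hypoxia.

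Most cells with any of these genes held 1 or 2 of them, and few held 4 or more. In Normoxia 35 cells had a UMI of 1 gene, 26 of 2, 6 of 3 and 4 of at least 4. In Hypoxia 14 cells had 1, 5 had 2, 4 had 3 and none had more, where 0 of 453 cells allows a share of cells with such UMIs of up to 0.662%. At least 2 genes were found in 36 of 293 Normoxia cells (12.3%, 8.76 to 16.6%) and in 9 of 453 Hypoxia cells (1.99%, 0.912 to 3.74%). Within the mesenchymal clusters the shares were 34 of 93 (36.6%, 26.8 to 47.2%) and 8 of 31 (25.8%, 11.9 to 44.6%), with intervals that overlap. After each cell was thinned to 1000 UMIs, with 6 Normoxia and 35 shallower Hypoxia cells left out, at least 2 genes remained in 9 of 287 (3.14%, 1.44 to 5.87%) and 2 of 418 cells (0.478%, 0.0580 to 1.72%), whose intervals overlap too. At 1500 UMIs per cell they remained in 14 of 273 (5.13%, 2.83 to 8.45%) and 4 of 385 cells (1.04%, 0.284 to 2.64%), whose intervals do not overlap.

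**Figure D3:**
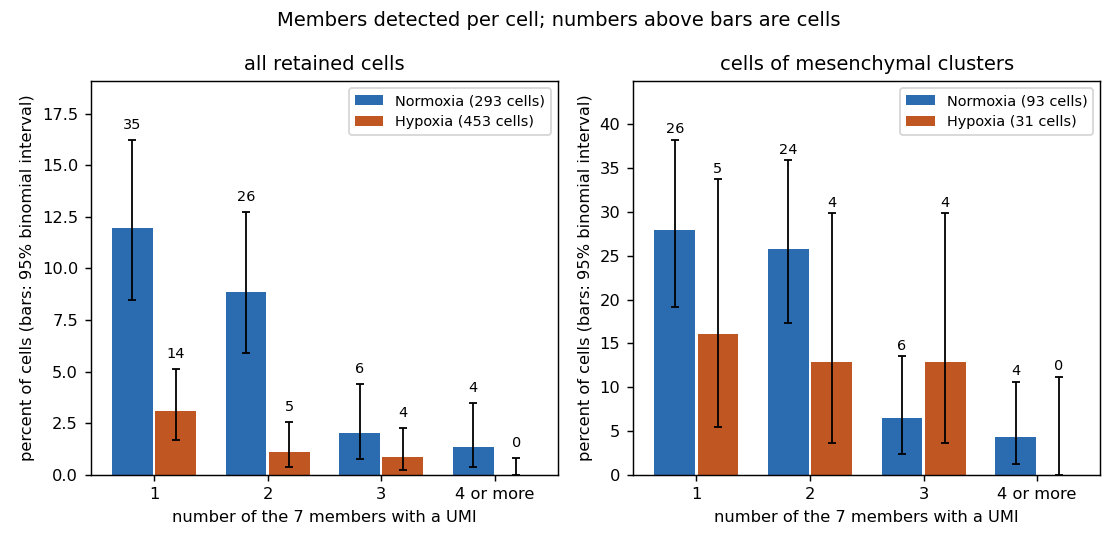
Percent of cells (y axis, bars 95% binomial intervals) by the number of the 7 genes with a UMI (x axis) in the Normoxia and Hypoxia libraries, for all retained cells and for mesenchymal clusters; numbers above the bars are cells. Normoxia bars are higher at 1 and 2 genes, while at 3 genes the 6 Normoxia and 4 Hypoxia cells have overlapping intervals, and 4 or more were found in 4 Normoxia cells.

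Kcnj8 and Abcc9 were the pair met most often. Both were found in 18 cells, which is 39.1% of the cells with Kcnj8 and 54.5% of those with Abcc9; 17 of the 18 were Normoxia cells. Rgs5 and Kcnj8 met in 8 cells (44.4% and 17.4%), as did Rgs5 and Abcc9 (44.4% and 24.2%). Higd1b and Notch3 met in 4 cells, 50% of those with Higd1b and 66.7% of those with Notch3.

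The 4 Normoxia cells with 4 or more of the genes were unlike the rest. They had 2097 to 5058 UMIs, lay in cluster 4, and held 0 UMIs of Hhip, of the fibroblast genes Dcn and Pdgfra, and of Acta2. Other fibroblast markers are not reported for these cells. Aspn, a myofibroblast gene also found in cells with Hhip, had 7, 4, 6 and 0 UMIs in cells 1 to 4. Cell 1 had 30 UMIs of Rgs5, 8 of Kcnj8, 5 of Abcc9, 6 of Cox4i2, 6 of Higd1b, 4 of Notch3 and 1 of Pdgfrb. Cell 2 likewise held all 7 genes, with 22, 14, 4, 4, 4, 1 and 3 UMIs in the same order. Cell 3 held 5, with 32 UMIs of Rgs5, 17 of Kcnj8, 3 of Abcc9, 3 of Cox4i2 and 2 of Pdgfrb. Cell 4 lacked Rgs5 and both channel genes, and had 13 UMIs of Cox4i2, 3 of Higd1b, 2 of Notch3 and 4 of Pdgfrb, beside 12 of Postn, a matrix gene of pericytes and activated fibroblasts. The channel genes were thus rich in the 3 cells that were rich in Rgs5, and unseen in the fourth.

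**Figure D4:**
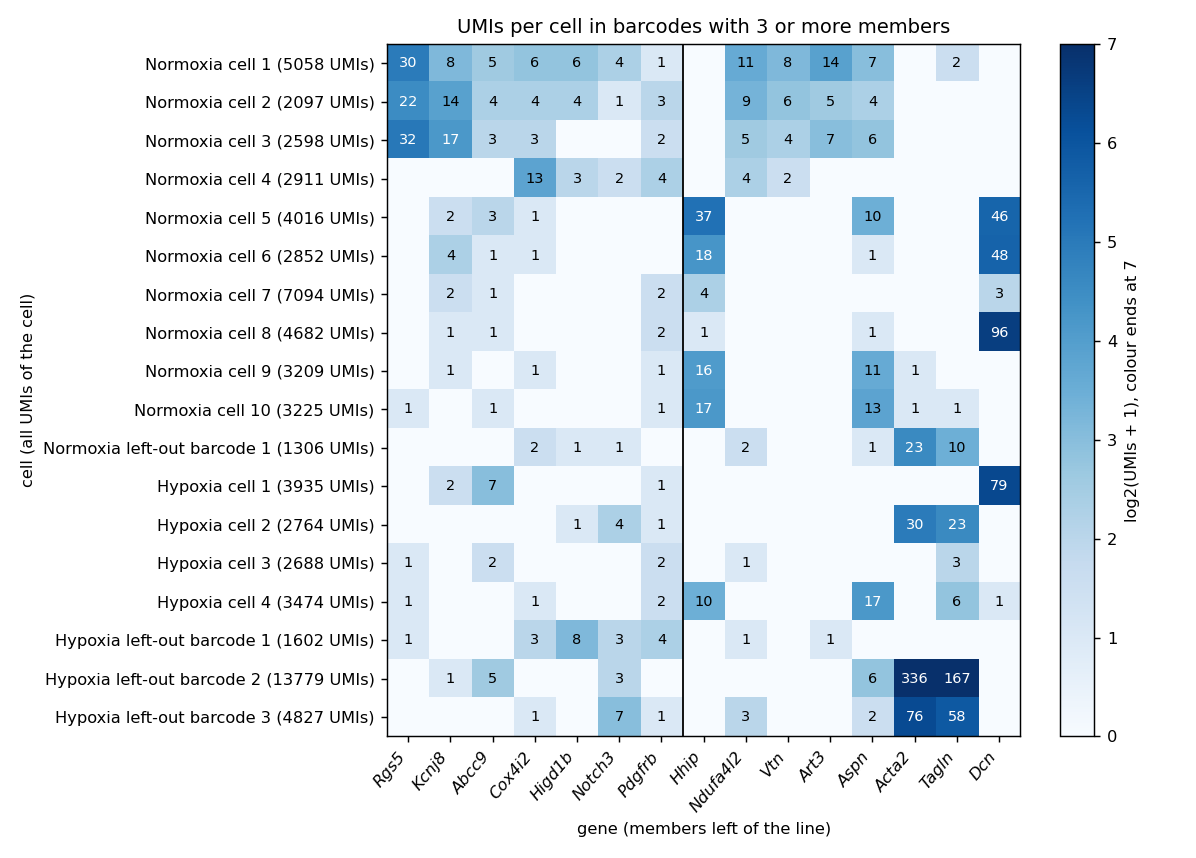
UMIs (numbers; colour on a log2(UMIs + 1) scale) of the 7 genes and of 8 other genes (x axis) in every barcode with 3 or more of the 7 genes (y axis, with the UMIs of the whole cell), including those left out for mitochondrial UMIs. Normoxia cells 1 to 3 share Rgs5, Kcnj8, Ndufa4l2, Vtn, Art3 and Aspn, Normoxia cells 5 to 10 carry Hhip with at most 4 UMIs of any of the 7 genes, and Hypoxia left-out barcodes 2 and 3 carry Acta2 and Tagln.

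The 4 cells held 1.14% of the Normoxia UMIs, and of 12 other pericyte genes 5 had more than 50% of their Normoxia UMIs in them. The cells were picked without these 12 genes, but the list was chosen with earlier results of these data known. How many of all genes had more than 50% of their UMIs in these 4 cells was not computed. Ndufa4l2, a mitochondrial protein induced by hypoxia-inducible factors, had 29 of its 30 Normoxia UMIs in them, in all 4 cells. Vtn, which encodes the matrix protein vitronectin, had 20 of 26 UMIs there, again in all 4, and Art3, an ADP-ribosyltransferase family member, had 26 of 29 in 3 of them. Gucy1b1, a subunit of the nitric oxide receptor guanylyl cyclase, had 19 of 31, and Trpc6, a cation channel, 2 of 3. The other 7 had a smaller part there, with Gucy1a1 at 12 of 27, Postn at 15 of 95, Lamc3 at 1 of 8, Mcam at 8 of 92, Ebf1 at 24 of 329, Pde5a at 1 of 26 and Cspg4 at 0 of 1. Cell 4 had no UMI of Art3 or Ebf1. Contractile genes of smooth muscle were mixed. Of 10 such genes 4 had 0 UMIs in these cells, Acta2 (of 87), Lmod1 (of 14), Actg2 (of 10) and Cnn1 (of 7), and Tagln had 2 of 108. Myl9, a myosin light chain, had 24 of 123 and Mylk, the kinase of myosin light chains, 7 of 89, each in all 4 cells, while Tpm2 had 8 of 128, Des 4 of 82 and Myh11 1 of 14.

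The 4 cells carried a large part of the Normoxia totals. They held 77.1% of the Normoxia UMIs of Rgs5, 76.5% of Cox4i2, 92.9% of Higd1b and 87.5% of Notch3, but 39.8% of Kcnj8, 24.5% of Abcc9 and 27.0% of Pdgfrb. Without them the log2 ratio in all retained cells was −4.18 (−7.30 to −2.17) for Rgs5, −2.09 (−2.90 to −1.34) for Kcnj8, −2.42 (−3.59 to −1.38) for Abcc9 and −1.48 (−2.53 to −0.50) for Pdgfrb. For Cox4i2 it was −1.21 (−3.17 to 0.58), and for Higd1b (1 UMI against 4) and Notch3 (1 against 5) it turned to 1.47 (−1.87 to 7.09) and 1.79 (−1.37 to 7.35). The lower level of Higd1b and Notch3 in Hypoxia hence depended on these 4 cells.

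The remaining cells with 2 or more of the genes mostly carried Hhip, the Hedgehog-interacting protein. Hhip (chromosome 8, 79965851 to 80058006) had 694 UMIs in 49 Normoxia cells and 40 UMIs in 6 Hypoxia cells, and 26 of the 36 Normoxia cells (72.2%, 54.8 to 85.8%) and 2 of the 9 Hypoxia cells (22.2%, 2.81 to 60.01%) with 2 or more of the genes had it. Among the 49 Normoxia cells with Hhip, Kcnj8 was found in 27 (55.1%, 40.2 to 69.3%), Abcc9 in 20 (40.8%, 27.0 to 55.8%), and Rgs5 and Pdgfrb in 10 each (20.4%, 10.2 to 34.3%). Cox4i2 was found in 4 (8.16%), never with more than 1 UMI. Higd1b and Notch3 were found in none, where 0 of 49 cells allows a share of cells with a UMI of up to 6.12% and says nothing of cells whose transcripts were not captured. The 6 Hypoxia cells with Hhip held Kcnj8 in 4 (66.7%, 22.3 to 95.7%), Abcc9 in 0 and Rgs5 in 1.

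The 47 Normoxia mesenchymal cells without Hhip looked different. Kcnj8 was found in 6 of them (12.8%, 4.83 to 25.7%) and Abcc9 in 7 (14.9%, 6.20 to 28.3%), whereas Pdgfrb was found in 16 (34.0%, 20.9 to 49.3%). Rgs5 was found in 4 cells, yet with 85 UMIs in all against 22 UMIs in the 10 cells with Hhip. Higd1b was found in 3 and Notch3 in 4 of the 47. In a single Normoxia cell Kcnj8 reached up to 4 UMIs where Hhip was present and up to 17 in the mesenchymal cells without it. Cells rich in fibroblast genes held the channel genes as well, such as a Hypoxia cell with 7 UMIs of Abcc9, 2 of Kcnj8, 79 of Dcn and 0 of Hhip.

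**Figure D5:**
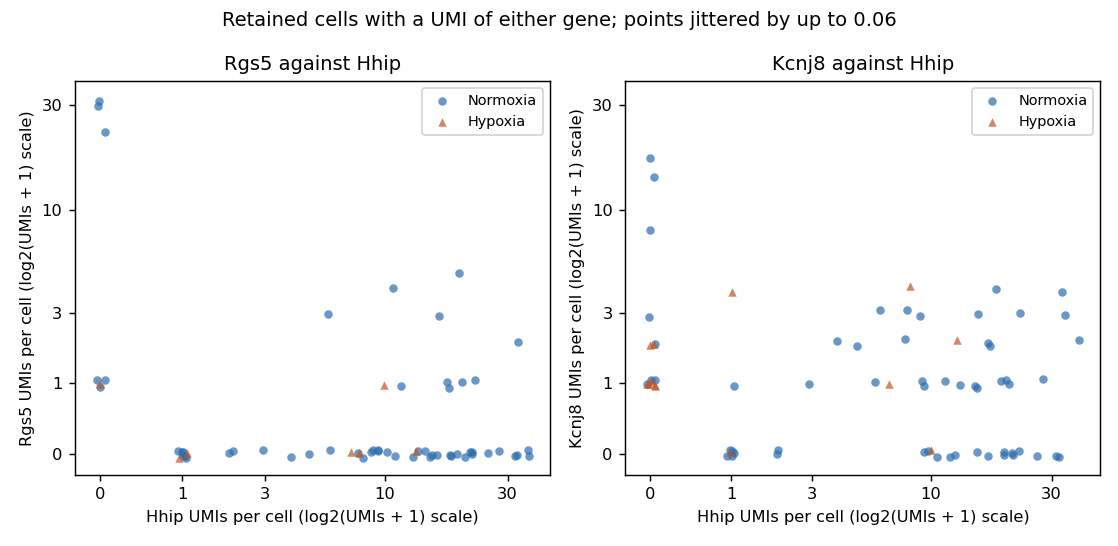
UMIs of Rgs5 and of Kcnj8 (y axes) against UMIs of Hhip (x axes) per retained cell with a UMI of either gene, on log2(UMIs + 1) scales labelled in UMIs; points are cells, circles Normoxia and triangles Hypoxia. Rgs5 at 22 to 32 UMIs was found in 3 cells with 0 Hhip UMIs, while Kcnj8 at 1 to 4 UMIs spread over cells with many Hhip UMIs.

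Outside the 7 genes, Hhip was the gene whose cells overlapped most with the 45 retained cells that had 2 or more of them. By the Jaccard index between the cells with a gene and these 45 cells, the genes with the highest values included Hhip (0.389), Dkk3 (0.357), Crispld2 (0.341), Meg3 (0.333), Serpine2 (0.326), Id4 (0.321), Dpt (0.318), Col1a1 (0.316) and Cdh4 (0.316). Dkk3 is a Dickkopf family protein, and Dpt and Col1a1 are matrix genes of fibroblasts. Hhip shared 28 of its 55 cells with these 45 cells. It met Kcnj8 in 31 cells and Abcc9 in 20, but Higd1b and Notch3 in 0. Of the 45 cells 36 were Normoxia cells, as were 49 of the 55 cells with Hhip.

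Outside the mesenchymal clusters, 28 UMIs were scattered over 21 cells, 3 of which held 2 of the genes. Kcnj8 stood out in cluster 14, an endothelial cell-like cluster led by the lymphatic genes Ccl21a, Mmrn1 and Prox1, where 2 of 4 Normoxia cells (4 UMIs) and 1 of 6 Hypoxia cells (2 UMIs) had it. No other endothelial cell-like cell did. In Hypoxia, Higd1b was found in 3 and Cox4i2 in 2 of 93 cells of the endothelial cell-like cluster 9. Of these cells 1 held both and had 18454 UMIs, far above the median of the library. In Normoxia, Cox4i2 was found in 3 and Higd1b in 1 of 39 cells of the endothelial cell-like cluster 10. Over all endothelial cell-like cells Cox4i2 had 9.58 CPM in Normoxia and 5.39 CPM in Hypoxia, and Higd1b 3.19 and 4.04 CPM.

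The other genes of these pathways were counted from lists chosen by function. Of 12 other pericyte genes, 9 had at least 20 UMIs and 7 were lower in Hypoxia by more than 2-fold, beside 8.13% of all genes counted, with a median log2 ratio of −2.27 beside 0.04. Postn had 95 and 7 UMIs (−4.28, −5.63 to −3.18), Art3 29 and 3 (−3.79, −6.15 to −2.10) and Ndufa4l2 30 and 9 (−2.25, −3.51 to −1.14). Vtn had 26 and 0 UMIs, at least 12.4-fold lower when 0 is taken as up to 3 counts. Mcam, which endothelial cells also express, was higher, with 92 and 232 UMIs (0.82, 0.46 to 1.18). Lamc3 and Trpc6 had 8 and 3 UMIs in Normoxia and 0 in Hypoxia.

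Contractile and myofibroblast genes were lower in the retained Hypoxia cells as well. Of 10 smooth muscle contractile genes 6 were counted and 5 were lower by more than 2-fold, beside the same 8.13%, with Acta2 at 87 and 51 UMIs (−1.29, −1.82 to −0.77) and Myl9 at 123 and 39 (−2.17, −2.73 to −1.64). Over all barcodes, those left out by the filters included, this was not so, and 0 of 10 contractile genes were lower and 4 were higher by more than 2-fold, beside 7% and 7.38% of all genes. Acta2 then had 110 and 464 UMIs (1.49, 1.19 to 1.80), Tagln 118 and 275 (0.63, 0.32 to 0.96), Myh11 16 and 102 (2.08, 1.32 to 2.95) and Myl9 135 and 214 (0.08, −0.24 to 0.40). In Hypoxia, 2 left-out barcodes held 336 and 76 of these Acta2 UMIs and 77 and 20 of the Myh11 UMIs. Acta2 was found in 19 of 373 Normoxia and 17 of 613 Hypoxia barcodes. Of 6 myofibroblast genes 5 were counted and all 5 were lower by more than 2-fold, beside the same 8.13%. Over all barcodes 4 of 5 were, beside 7%. Aspn had 305 and 28 UMIs in the retained cells (−3.96, −4.58 to −3.40), and 155 of its Normoxia UMIs lay in cells with 2 or more of the 7 genes. Lists that are not of mural genes differed less at the minimum of 20 UMIs. Of 6 RGS genes counted, 0 passed 2-fold in either direction. At a minimum of 10 UMIs 2 of 8 were lower, Rgs4 (16 and 1 UMIs) and Rgs16 (14 and 4). Of 5 respiratory chain paralogues 1 passed 2-fold, Ndufa4l2, which is also on the list of pericyte genes.

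The ligands of both receptors were also counted. Pdgfb, which endothelial cells make as the ligand of PDGFRβ, had 53 and 168 UMIs and was the gene of 4 counted PDGF genes that was higher by more than 2-fold (log2 ratio 1.15, 0.69 to 1.62), beside 6.21% of all genes counted. Of 11 Notch genes counted, 1 was higher and 1 lower by more than 2-fold, beside 6.21% and 8.13% of all genes counted. Jag2 was higher (12 and 52 UMIs, 1.60, 0.67 to 2.64) and Dll4 lower (42 and 26 UMIs, −1.21, −1.97 to −0.47), while Jag1 had 18 and 28 UMIs. Heyl, a Notch target of mural cells, had 8 and 3 UMIs, and 6 of the 8 were in cells with 2 or more of the 7 genes. Endothelial cell-like cells were 109 in Normoxia and 214 in Hypoxia, and their part in these ratios was not tested. Epas1 (HIF2α) had a log2 ratio of 0.63 (0.48 to 0.78) and Hif1a of 0.20 (−0.43 to 0.84).

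The filter on mitochondrial UMIs bore on these genes more in Hypoxia than in Normoxia. It left out 146 Hypoxia and 51 Normoxia barcodes. The left-out Hypoxia barcodes held 14 UMIs of Notch3 in 4 barcodes, against 5 UMIs in all retained Hypoxia cells, and 8 UMIs of Higd1b, all in 1 barcode, against 4. That barcode had 8.86% mitochondrial UMIs, 5 of the 7 genes (1 UMI of Rgs5, 3 of Cox4i2, 8 of Higd1b, 3 of Notch3 and 4 of Pdgfrb), 4 UMIs of Postn, and 0 UMIs of Hhip, Dcn and Acta2. A pair of other Hypoxia barcodes, with 7.00% and 10.9% mitochondrial UMIs, held Notch3 (3 and 7 UMIs) together with Acta2 (336 and 76), Tagln (167 and 58), Myh11 (77 and 20) and Cspg4 (4 each), genes of smooth muscle. Over all barcodes, the count of those with 4 or more of the 7 genes was 4 in Normoxia and 1 in Hypoxia. With them, Notch3 had 9 UMIs in Normoxia and 19 in Hypoxia (log2 ratio 0.49, −0.72 to 1.82) and Higd1b 15 and 12 (−0.91, −2.14 to 0.28), while Rgs5 had 109 and 3 (−5.77, −8.07 to −4.19) and Kcnj8 99 and 22 (−2.76, −3.50 to −2.08).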

How the data were processed

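For 1 Normoxia and 1 Hypoxia library the deposited files hold UMI counts by gene and barcode, not normalized. Per the file headers they came from Cell Ranger 3.1.0. The submitters' processing notes name mm10. The labels count 3 replicates, yet each group has a single matrix, and pooling of animals is not mentioned. Total counts were 1323874 UMIs in Normoxia and 1989423 in Hypoxia.

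Filters followed the study's methods (200 to 6000 genes per barcode, mitochondrial UMIs up to 5%). Scanpy 1.11.5 clustered both libraries together (log-normalization to 10000 UMIs, 2000 variable genes without the 7 genes, Hhip and the lists, genes in at least 3 cells, 15 components, 15 neighbours, Leiden resolution 1). The naming rule was chosen once the clusters were known. A name needed at least 3 markers and 50% of a class's list, each marker in at least 25% of its cells and at 2 times the median CPM over clusters. The class with most markers was taken, without ties. No other class could have more of its markers among the 10 leading genes. A cluster of mostly shallow cells also needed a leading gene from its class. Doublets were kept; Scrublet marked 1 Normoxia and 2 Hypoxia cells.

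UMIs were summed per library and divided by all UMIs of the same cells. Sums have exact Poisson intervals, ratios conditional binomial intervals and shares Clopper-Pearson intervals, at 95%; a count of 0 allows 3 counts. The ratio calculation was tested on simulated data. The 7 genes and the lists were chosen with earlier results of these data known. Named genes are the 7, Hhip, list genes where a sentence needs them, 1 paralogue each, and the 10 genes in at least 10 cells with the highest Jaccard index, of which 1 is not reported here; genes leading a cluster and Dcn were named after their values had been seen. Promoters are from RefSeq and positions from GENCODE M21. No promoter entry was found for Cox4i2 and Higd1b, while that of Pdgfrb was left out and its motifs are not reported. Other filters, thresholds, thinning depths and clusterings were tried.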

Additional observations from a re-analysis of the deposited data

Results flagged for a closer look

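Signal was found in barcodes that the comparisons did not use. The Hypoxia barcodes left out by the filters held 14 UMIs of Notch3, 8 of Higd1b, 7 of Pdgfrb, 6 of Cox4i2 and 8 of Cspg4, each above 3 counts and above the CPM of the left-out Normoxia barcodes, which held 1, 1, 1, 2 and 0.

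The ratios of Kcnj8 and Pdgfrb pointed in opposite directions in the mesenchymal clusters. In cluster 4 the log2 ratio was −1.36 (−2.57 to −0.31) for Kcnj8 and −0.37 (−1.52 to 0.67) for Pdgfrb. In cluster 5 these were 0.70 (−0.69 to 1.86) and 1.86 (−1.48 to 4.35). Cluster 5 had 4 Hypoxia cells, 3 of the 4 intervals included 0, and the differences between clusters were not tested.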

How the results depend on the processing

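Of 133 values computed under alternatives, 102 kept their direction and stayed within the counting interval or within 1.5 times the count, 28 moved further and 3 changed sign. The log2 ratio of Notch3 turned to 0.41 with no mitochondrial maximum, and without the 4 Normoxia cells with 4 or more of the genes, an alternative chosen after seeing the data, Notch3 turned to 1.79 and Higd1b to 1.47. Without these cells the log2 ratio was −4.18 for Rgs5, −2.09 for Kcnj8 and −1.21 for Cox4i2 in all retained cells, and −2.14 for Rgs5, −0.94 for Cox4i2 and 3.38 for Notch3 in the mesenchymal clusters. Without the cell with most UMIs in each library that of Abcc9 was −4.39, since 1 Hypoxia cell held 7 of its 10 UMIs. The share of cells with 2 or more of the genes followed the demand on UMIs. In Normoxia and Hypoxia it was 2.73% and 0.442% when each gene needed at least 2 UMIs, 3.41% and 0.883% for at least 3 genes, 2.05% and 0.442% after thinning to 500 UMIs, and 3.14% and 0.478% after thinning to 1000 UMIs. After thinning to 1500 UMIs the shares were 5.13% and 1.04%, the latter within the interval of the unthinned share, and the intervals of the 2 libraries, which overlap at 1000 UMIs, no longer did. Without Kcnj8 or without Abcc9 the Normoxia share was 6.48% in each case. With at least 2 UMIs for each gene and for Hhip, the share of these cells with Hhip was 50% in Normoxia (4 of 8) and 0% in Hypoxia (0 of 2). Over all barcodes, also chosen after seeing the data, the count of smooth muscle contractile genes lower by more than 2-fold was 0. Other clusterings placed 92.7% to 92.9% of the UMIs of the 7 genes in mesenchymal clusters. No paired analysis was possible because there was 1 library per group. Of 164 detections of a gene in a cell 99 were of 1 UMI, so a cell without a UMI is not a cell without the transcript. The kinds of cells and the treatment differ together between the libraries and cannot be told apart.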
